A study of Mus musculus with 4 samples.

Results

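Lipid kinases that act beside class I phosphoinositide 3-kinase (PI3K) were examined in mouse type 1 innate lymphoid cells (ILC1s). The set held 10 genes, found by their symbols among the 40481 genes of the count table. It comprised the class II PI3K genes Pik3c2a and Pik3c2b, the class III catalytic and regulatory genes Pik3c3 and Pik3r4, Pikfyve, the PI5P 4-kinase genes Pip4k2a and Pip4k2b, the PI4P 5-kinase genes Pip5k1a and Pip5k1c, and the PI4-kinase gene Pi4ka. ILC1s are innate lymphocytes that reside in tissues and are related to natural killer (NK) cells, and those studied here were selected by the integrin CD49a. Control libraries 1 and 2 came from Inpp4b flox/flox mice. Libraries 3 and 4, labelled knockout, came from Ncr1-iCre Inpp4b flox/flox mice, in which the floxed alleles are combined with a Cre driven by the gene of the receptor NKp46. Floxed alleles were thus common to both groups, and the transgene cannot be told apart from the loss of Inpp4b. Liver is named for control library 1, and the other libraries are labelled with the cell type alone.

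Phosphoinositides are membrane lipids whose inositol ring is phosphorylated at defined positions. Class III PI3K, called VPS34, makes PI3P on endosomes and autophagosomes with the regulatory protein VPS15, which Pik3r4 encodes. PIKfyve turns PI3P into PI(3,5)P2 on late endosomes and lysosomes. Class II enzymes make PI(3,4)P2 and PI3P on membranes of the endocytic route. PI4KA makes the PI4P of the plasma membrane, PI4P 5-kinases turn it into PI(4,5)P2, and PI(4,5)P2 is the substrate of class I PI3K. PI5P 4-kinases make PI(4,5)P2 from the minor lipid PI5P. INPP4B, the phosphatase targeted in the series, removes a phosphate from PI(3,4)P2 and so yields PI3P.

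Start-site windows (250 bases before to 50 after the start, RefSeq, GRCm38.p6) were found for 8 of the 10 members, 9 windows in all. Each was searched on both strands for GTAAACA, the core bound by FOXO factors that act downstream of AKT, for TCACGTGA, the core of the CLEAR element of lysosomal genes, and for the GC box GGGCGG, and no motif contains another. FOXO cores stood in 3.65% of all 32851 windows, the CLEAR core in 0.974% and GC boxes in 35.7%. Of the members' windows, the CLEAR core was in that of Pip5k1a alone, FOXO cores were in 1 of the 2 windows of Pi4ka, and GC boxes were in those of Pik3c2a, Pik3c2b, Pikfyve, Pip4k2a, Pip5k1c and in the other window of Pi4ka. A match is a string of letters and does not show binding. The window of Pip5k1a, the member with the smallest p, is shown with that of Pi4ka that holds FOXO cores and that of Pik3c2a as an example of GC boxes, with the matches in capitals. They are Pip5k1a at chr3:95106881-95107180 (minus strand), Pi4ka at chr16:17406265-17406564 (minus strand) and Pik3c2a at chr7:116443409-116443708 (minus strand).
Pip5k1a: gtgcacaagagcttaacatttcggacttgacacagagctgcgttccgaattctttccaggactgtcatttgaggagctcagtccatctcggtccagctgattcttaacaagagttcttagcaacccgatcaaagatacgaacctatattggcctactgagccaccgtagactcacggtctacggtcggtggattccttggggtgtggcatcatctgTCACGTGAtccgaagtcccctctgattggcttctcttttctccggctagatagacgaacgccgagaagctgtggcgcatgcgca
Pi4ka: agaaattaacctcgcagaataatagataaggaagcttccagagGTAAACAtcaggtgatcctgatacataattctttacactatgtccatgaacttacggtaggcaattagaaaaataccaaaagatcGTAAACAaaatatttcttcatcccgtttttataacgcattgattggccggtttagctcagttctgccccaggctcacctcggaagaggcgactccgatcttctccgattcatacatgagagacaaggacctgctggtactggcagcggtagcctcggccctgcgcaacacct
Pik3c2a: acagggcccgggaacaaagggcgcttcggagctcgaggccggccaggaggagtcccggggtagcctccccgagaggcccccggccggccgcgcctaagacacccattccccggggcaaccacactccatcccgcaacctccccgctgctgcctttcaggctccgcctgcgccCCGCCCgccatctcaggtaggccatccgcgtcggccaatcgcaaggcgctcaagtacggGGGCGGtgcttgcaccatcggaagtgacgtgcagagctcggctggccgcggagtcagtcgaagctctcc

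Library totals ranged from 42380840 to 54878210 counts. Inpp4b (ENSMUSG00000037940) was at 78.7 and 107 CPM in controls and at 143 and 86.0 CPM in the knockout-labelled libraries, where CPM is the count scaled to a TMM-adjusted library total of equal size. Its log2 fold change was 0.30 (SE 0.28, adjusted p = 0.828, edgeR), so the targeted transcript was not lower in the knockout-labelled libraries. The count covers the whole gene and does not check a deletion of some exons. Ncr1, whose promoter drives the Cre, was at 1672 and 1772 CPM in controls and at 1202 and 1077 CPM in the knockout-labelled libraries (log2 fold change -0.60, SE 0.14, adjusted p = 0.28, edgeR). All 9 ILC1 markers passed the low-count filter, and their summed level was 9553 to 10324 CPM in controls and 9389 to 10290 CPM in the knockout-labelled libraries. Il2rb, Cxcr6, Klrb1c and Ncr1 made up most of that sum. For 3 of the 9 (Itga1, Tbx21 and Ncr1) both knockout-labelled libraries lay under both controls, and for 2 (Klrb1c and Cxcr6) above both. These arrangements were found in 20.8% and 19.5% of all tested genes. Of the 9 ILC1 markers, 4 had positive and 5 had negative log2 fold changes. edgeR called 0 of them, and Ncr1 alone had an unadjusted p under 0.05. Markers of monocytes, macrophages and dendritic cells summed to 870 to 989 CPM in controls and 2848 to 3476 CPM in the knockout-labelled libraries, and 7 of the 14 tested (15 listed) passed an adjusted p of 0.05 upwards. T cell markers summed to 1317 to 1540 CPM and 2010 to 2858 CPM, with 1 of the 7 tested (9 listed) passing upwards (Trac) and 5 higher with an unadjusted p under 0.05. Cd3g made up most of that sum, at 1255 to 1469 CPM in controls and 1623 to 1931 CPM in the knockout-labelled libraries. Cd3e stood at 26.5 and 15.1 CPM in controls against 152 and 371 CPM, and Trac at 7.31 and 5.67 CPM against 85.1 and 201 CPM, while Cd5 and Cd6 stayed under 0.4 CPM in every library. Markers of conventional NK cells summed to 71.6 to 76.6 CPM in controls and 316 to 907 CPM in the knockout-labelled libraries. Of these 8, 1 passed upwards (Klra7). Klra7 was at 27.8 and 37.5 CPM in controls against 251 and 521 CPM, and Klra1 at 3.74 and 5.97 CPM against 19.0 and 328 CPM. In the knockout-labelled libraries, Klra7 and Klra1 made up most of the sum of the conventional NK cell markers. Itgam was at 21.02 and 18.18 CPM in controls against 31.88 and 31.27 CPM, and Klra8 at 7.59 and 5.06 CPM against 3.7 and 14.2 CPM. Eomes ranged from 0.868 to 3.73 CPM over all libraries. The groups overlapped for Klra8 and S1pr5. Both knockout-labelled libraries lay above both controls for 5 of the 8 and under both for 1 (Itga2). Neutrophil markers summed to 94.4 to 103 CPM in controls and 155 to 245 CPM in the knockout-labelled libraries. Of the 3 tested (6 listed), 0 passed in edgeR and 2 were higher with an unadjusted p under 0.05. Mmp9 made up nearly all of that sum, at 94.4 to 102 CPM in controls and 154 to 243 CPM. S100a8, S100a9, Ly6g and Cxcr2 stayed under 0.4 CPM in every library. The part of these other cell types in the values below was not tested. In bulk libraries, fewer cells of a type and less RNA per cell cannot be told apart.

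No member passed the threshold. edgeR's quasi-likelihood test called 0 of the 10 genes at an adjusted p under 0.05, and 0 also at an unadjusted p under 0.05, while DESeq2 called 0 adjusted and had Pip5k1a alone under 0.05 unadjusted. Over all 14863 tested genes, 0.155% were called (0.141% higher, 0.0135% lower) and 9.65% had an unadjusted p under 0.05 (4.48% higher, 5.17% lower). In DESeq2 the shares were 3.21% of 15030 genes with an adjusted p and 8.03% of 23999 with an unadjusted one. All 10 members passed the low-count filter, with at least 17 counts in every library. Fold changes are log2 of the knockout-labelled libraries over control, with the standard error (SE) of the fit.

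The log2 fold change was negative for 8 members and positive for 2, beside 51.3% negative over all tested genes. The members' median was -0.31, against -0.01 for all tested genes. Both knockout-labelled libraries lay under both controls for 4 members (Pik3c2a, Pik3c2b, Pikfyve and Pip5k1a), an arrangement found in 20.8% of all tested genes. Both lay above both controls for 1 member (Pik3c3), an arrangement found in 19.5%. With 10 genes these counts describe the set and were given no test.

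**Figure D1:**
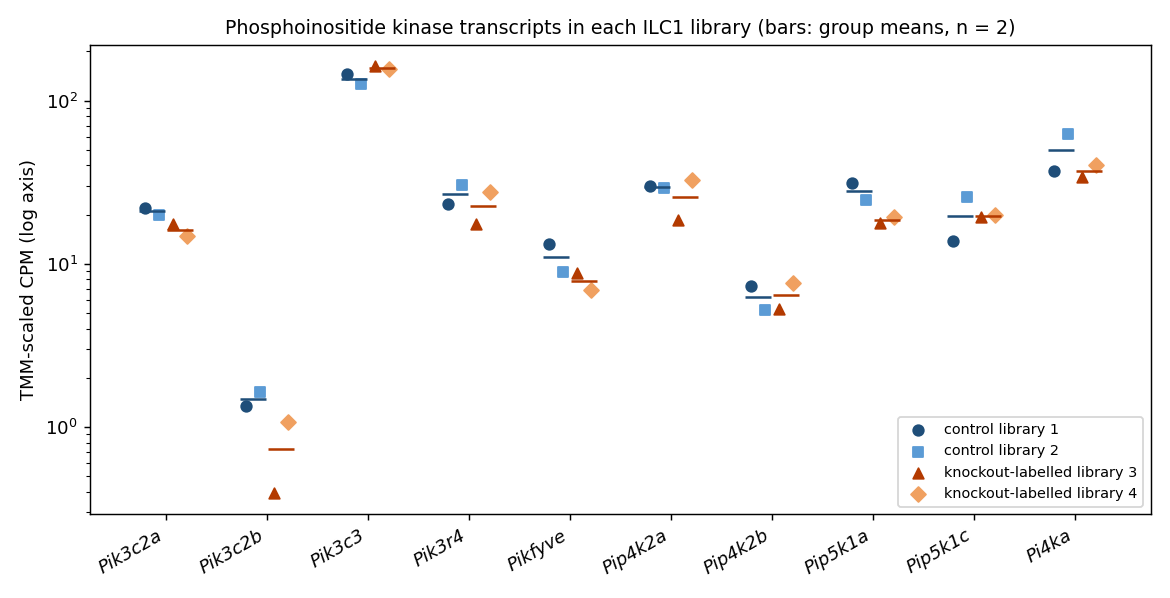
TMM-scaled CPM (log axis) of the 10 kinase genes in each of the 4 libraries; points are libraries and short bars are group means. The groups overlap for Pik3r4, Pip4k2a, Pip4k2b, Pip5k1c and Pi4ka and do not for the other 5 genes; levels are not scaled to length here.

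Starting with class III, Pik3c3 (ENSMUSG00000033628, mm10 chromosome 18, 30272747 to 30348126), which encodes the only kinase of that class, had the highest counts of the set. It was at 146 and 126 CPM in controls and at 163 and 156 CPM in the knockout-labelled libraries. The means were 136 ± 14.03 and 159 ± 5.22 CPM (SD over n = 2 libraries), and both knockout-labelled libraries were above both controls. The log2 fold change of 0.23 (SE 0.15, 95% interval -0.14 to 0.59) did not pass the threshold (adjusted p = 0.725, edgeR). Pik3r4 (ENSMUSG00000032571, chromosome 9, 105642978 to 105687657), the VPS15 gene, stood at 23.1 and 30.5 CPM in controls and at 17.6 and 27.7 CPM in the knockout-labelled libraries. Its groups overlapped, with library 3 lowest and library 4 between the controls. The log2 fold change was -0.24 (SE 0.32, adjusted p = 0.916, edgeR), and it was 0.03 without library 3 and -0.63 without library 4.

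VPS34 works in complexes with further subunits, and these gave values near those of all genes. All 7 partner genes (Becn1, Atg14, Uvrag, Rubcn, Nrbf2, Ambra1 and Sh3glb1) were tested, 4 with positive and 3 with negative log2 fold changes and a median of 0.01. edgeR called 0 of them, and 0 at an unadjusted p under 0.05. Rubcn, a negative regulator of the endosomal complex, stood at 34.9 and 33.7 CPM in controls and at 25.4 and 30.9 CPM in the knockout-labelled libraries (log2 fold change -0.28, adjusted p = 0.796, edgeR). Nrbf2, a subunit of the autophagy complex, differed most between replicates, at 20.25 and 6.14 CPM in controls against 10.96 and 3.85 CPM (-0.84, SE 0.70, adjusted p = 0.805, edgeR). Uvrag, which marks the endosomal complex, had a log2 fold change of 0.09.

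Pikfyve (ENSMUSG00000025949, chromosome 1, 65186683 to 65278695), the gene of the kinase that consumes PI3P, was at 13.2 and 8.85 CPM in controls and at 8.75 and 6.90 CPM in the knockout-labelled libraries. The groups did not overlap, but control library 2 and library 3 were nearly level. The means were 11.02 ± 3.07 and 7.82 ± 1.31 CPM (SD over n = 2 libraries). The log2 fold change of -0.49 (SE 0.37, 95% interval -1.39 to 0.40) did not pass the threshold (adjusted p = 0.772, edgeR). It was -0.18 without control library 1, the one library that stood higher, -0.75 when control library 2 was left out and -0.70 when library 3 was. Of the 2 partners in its complex, the scaffold gene Vac14 was at 7.69 and 4.45 CPM in controls against 2.86 and 5.97 CPM (log2 fold change -0.46, adjusted p = 0.894, edgeR), and Fig4, which encodes the phosphatase of the complex, had a log2 fold change of 0.05 (adjusted p = 0.99, edgeR). edgeR called neither, and neither was under 0.05 unadjusted.

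Of the class II genes, Pik3c2a (ENSMUSG00000030660, chromosome 7, 116337265 to 116443449) was at 22.0 and 19.8 CPM in controls and at 17.5 and 14.8 CPM in the knockout-labelled libraries. The means were 20.9 ± 1.53 and 16.1 ± 1.86 CPM (SD over n = 2 libraries). The groups did not overlap, and the log2 fold change of -0.37 (SE 0.27, 95% interval -1.02 to 0.27) did not pass the threshold (adjusted p = 0.754, edgeR). Exons of Pik3c2a share 1369 bases with the antisense gene Gm44777, and the strand setting is not given. Pik3c2b (ENSMUSG00000026447, chromosome 1, 133045667 to 133108687) was scarcely detected, with 78 and 77 counts in controls and 17 and 55 counts in the knockout-labelled libraries. The exact 95% Poisson intervals, which cover counting error only, were 61.7 to 97.3 and 60.8 to 96.2 counts in controls, 9.90 to 27.2 in library 3 and 41.4 to 71.6 in library 4. On the scaled level it was at 1.35 and 1.63 CPM in controls against 0.396 and 1.06 CPM. Its log2 fold change of -1.02 had the widest error of the set (SE 0.87, adjusted p = 0.809, edgeR) and was -0.50 without library 3 and -1.93 without library 4.

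Among PI4P 5-kinase genes, Pip5k1a (ENSMUSG00000028126, chromosome 3, 95058530 to 95106930) had the smallest p of the set. It was at 31.1 and 24.6 CPM in controls and at 17.6 and 19.5 CPM in the knockout-labelled libraries, so the groups did not overlap. The means were 27.8 ± 4.66 and 18.5 ± 1.29 CPM (SD over n = 2 libraries). The log2 fold change was -0.59 (SE 0.26, 95% interval -1.22 to 0.04, edgeR unadjusted p = 0.0629, adjusted p = 0.547). DESeq2 gave an unadjusted p of 0.0415 and an adjusted p of 0.36. Pip5k1c (ENSMUSG00000034902, chromosome 10, 81292963 to 81319973), the isoform known for its role at adhesion sites and synapses, was at 13.8 and 25.7 CPM in controls and at 19.3 and 19.8 CPM in the knockout-labelled libraries. Both knockout-labelled libraries lay between the controls, and the log2 fold change was -0.01 (SE 0.35, adjusted p = 0.997, edgeR). It was 0.51 without control library 2 and -0.40 when control library 1 was left out, and it was positive at 0.02 with upper-quartile factors.

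The PI5P 4-kinase genes showed no difference beyond the spread between replicates. Pip4k2a (ENSMUSG00000026737, chromosome 2, 18842255 to 18998126), the more abundant of the pair per length, was at 29.8 and 29.0 CPM in controls and at 18.5 and 32.5 CPM in the knockout-labelled libraries. Libraries 3 and 4 were the lowest and the highest of all, so the log2 fold change of -0.20 (SE 0.32, adjusted p = 0.937, edgeR) was 0.13 without library 3 and -0.69 without library 4. Pip4k2b (ENSMUSG00000018547, chromosome 11, 97715157 to 97744704) was at 7.35 and 5.19 CPM in controls and at 5.30 and 7.61 CPM in the knockout-labelled libraries. The groups interleaved, and the log2 fold change was 0.04 (SE 0.42, 95% interval -0.97 to 1.06, adjusted p = 0.996, edgeR), turning to -0.02 when library totals alone set the scale.

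Pi4ka (ENSMUSG00000041720, chromosome 16, 17280351 to 17406314), which encodes the kinase that supplies plasma membrane PI4P, was at 37.0 and 62.6 CPM in controls and at 33.8 and 40.0 CPM in the knockout-labelled libraries. Control library 2 was high, and control library 1 lay between the knockout-labelled libraries. The log2 fold change was -0.43 (SE 0.29, 95% interval -1.14 to 0.28, adjusted p = 0.734, edgeR). With control library 2 left out it was 0.0022, and in the absence of control library 1 it was -0.76 (edgeR unadjusted p = 0.0317, adjusted p = 0.598). Exons of Pi4ka share 240 bases with Tmem191c and 60 bases with Snap29 on the opposite strand. Tmem191c was at 8.24 to 10.7 CPM and Snap29 at 33.99 to 42.01 CPM, and reads of such overlaps cannot be assigned without strand. Of the 6 genes of the complex that brings PI4KA to the plasma membrane, 5 were tested and edgeR called 0, with 0 at an unadjusted p under 0.05 and a median log2 fold change of 0.07. Fam126b was at 14.2 and 18.6 CPM in controls against 14.8 and 8.46 CPM (-0.49, adjusted p = 0.776, edgeR). Efr3a, a membrane anchor of the complex, was at 203 and 77.7 CPM against 124 and 86.9 CPM (-0.41, adjusted p = 0.869, edgeR). Ttc7, a scaffold gene, had a log2 fold change of 0.20 (adjusted p = 0.887, edgeR).

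**Figure D2:**
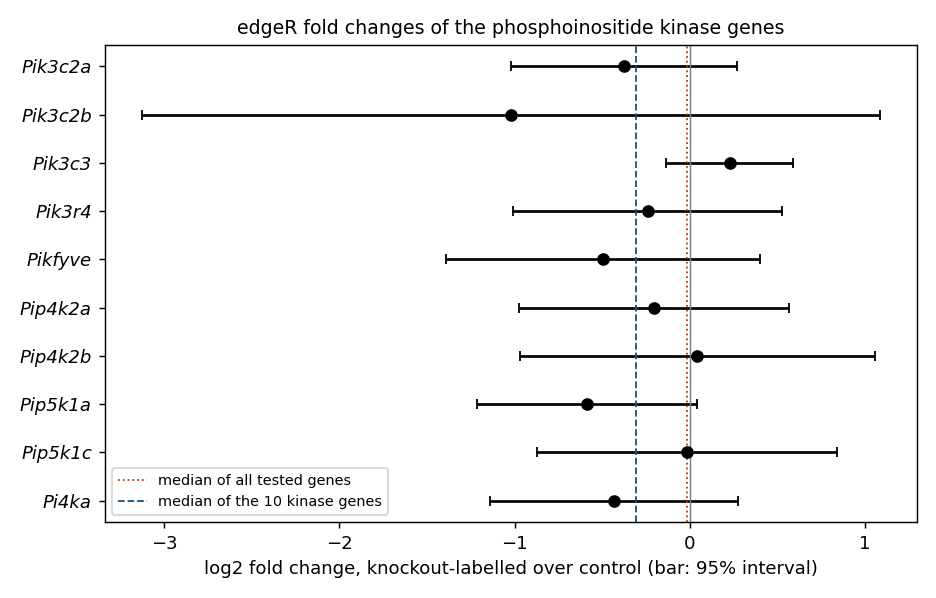
Points are edgeR log2 fold changes of the 10 kinase genes (knockout-labelled libraries over control) and bars their 95% intervals; vertical lines mark the medians of the 10 genes (-0.31) and of all tested genes (-0.01). Every interval includes 0, and that of Pik3c2b is the widest.

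The 4 libraries did not hold the members in one order. Library 3 was the lowest library for 5 members (Pik3c2b, Pik3r4, Pip4k2a, Pip5k1a and Pi4ka) and library 4 for Pik3c2a and Pikfyve. Control library 2 was the highest for Pik3c2b, Pik3r4, Pip5k1c and Pi4ka, and control library 1 for Pik3c2a, Pikfyve and Pip5k1a. With each library left out in turn, Pik3c2a, Pik3c2b, Pikfyve and Pip5k1a stayed negative and Pik3c3 stayed positive. The members' median moved from -0.47 without library 4 to -0.17 without library 3, with 9 and 6 members negative. The other 5 members lay on both sides of 0 under the alternatives tried or with a library left out.

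**Figure D3:**
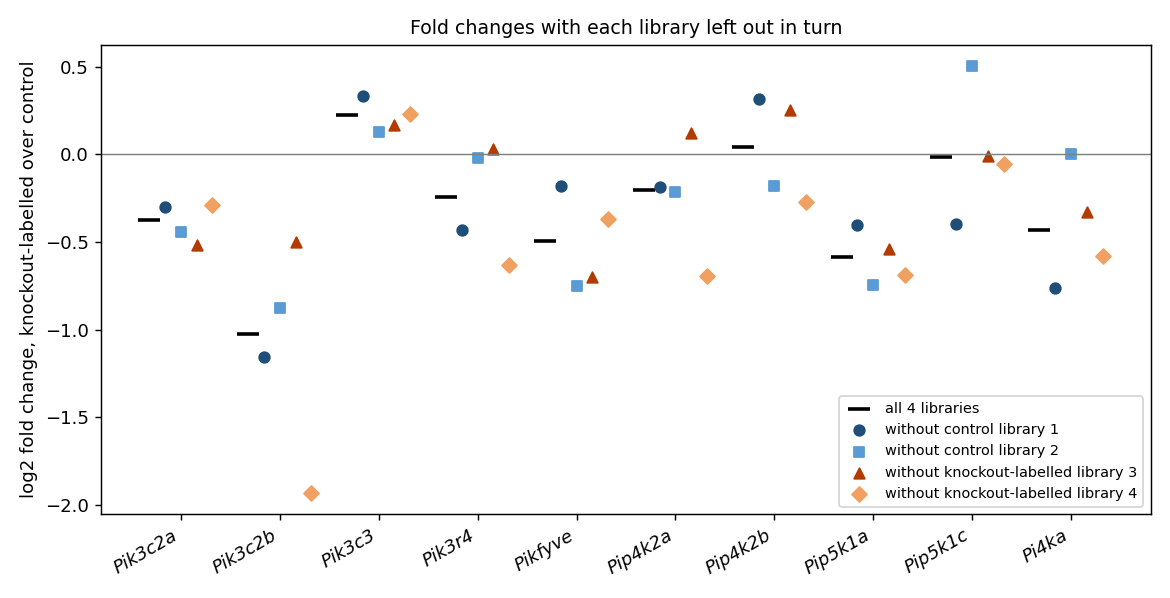
Log2 fold change of each kinase gene (knockout-labelled libraries over control) with all 4 libraries (black bar) and with each library left out in turn (coloured symbols). Pip5k1a runs from -0.74 to -0.41 and stays under 0, while Pip5k1c runs from -0.40 to 0.51.

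Levels were compared between genes per kilobase of summed exon (RPKM, the TMM-scaled CPM divided by length). Pik3c3 came first at 33.1 ± 3.57 RPKM (SD over all 4 libraries), at percentile 88.0 of the tested genes, and its lowest library (28.2 RPKM) was above the highest of any other member. Pip4k2a followed at 7.90 ± 1.76, Pip5k1a at 5.29 ± 1.38, Pi4ka at 3.85 ± 1.16, Pip5k1c at 3.42 ± 0.847, Pik3r4 at 2.56 ± 0.585, Pik3c2a at 1.66 ± 0.276 and Pip4k2b at 1.22 ± 0.249 RPKM. Each of these neighbours overlapped the next in its range over libraries. Pikfyve at 0.490 ± 0.139 and Pik3c2b at 0.120 ± 0.0572 RPKM lay below, at percentiles 19.4 and 5.7, and did not overlap their neighbours. Pik3c3 made up 48.0 to 53.9% of the members' summed RPKM in controls and 56.4 to 63.9% in the knockout-labelled libraries. Exons annotated only in minor transcripts lengthen some genes, and the order changed with the length of the transcript of longest coding sequence. Pikfyve was then at 1.42 RPKM, above Pip4k2b at 1.26 RPKM. Pi4ka at 6.54 RPKM was above Pip5k1a at 6.33 RPKM, and Pik3r4 at 5.20 RPKM was above Pip5k1c at 4.54 RPKM.

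Ratios between paired genes within a library do not depend on how libraries are scaled. Pik3c2a exceeded Pik3c2b per length by 13.6-fold and 10.1-fold in controls and by 36.6-fold and 11.6-fold in the knockout-labelled libraries. Pik3c3 exceeded Pik3r4 by 13.7-fold and 8.94-fold in controls and by 20.0-fold and 12.1-fold in the knockout-labelled libraries. Pip4k2a exceeded Pip4k2b in every library, by 5.23-fold to 8.37-fold. Per length, Pip5k1a exceeded Pip5k1c by 2.95-fold in control library 1 and by 1.25-fold, 1.20-fold and 1.29-fold in control library 2 and libraries 3 and 4. This direction depended on the length used. Ratios of the raw counts were 2.26, 0.957, 0.915 and 0.985 in libraries 1, 2, 3 and 4. With the length of the transcript of longest coding sequence they were 2.67, 1.13, 1.08 and 1.16. Library 3 gave the highest Pik3c2a to Pik3c2b and Pik3c3 to Pik3r4 ratios, and control library 1 alone stood apart for the PI4P 5-kinases. The groups overlapped for all 4 pairs. An exact two-sided permutation test of 2 libraries against 2 gave p = 0.667 for each pair and cannot go below 0.33.

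**Figure D4:**
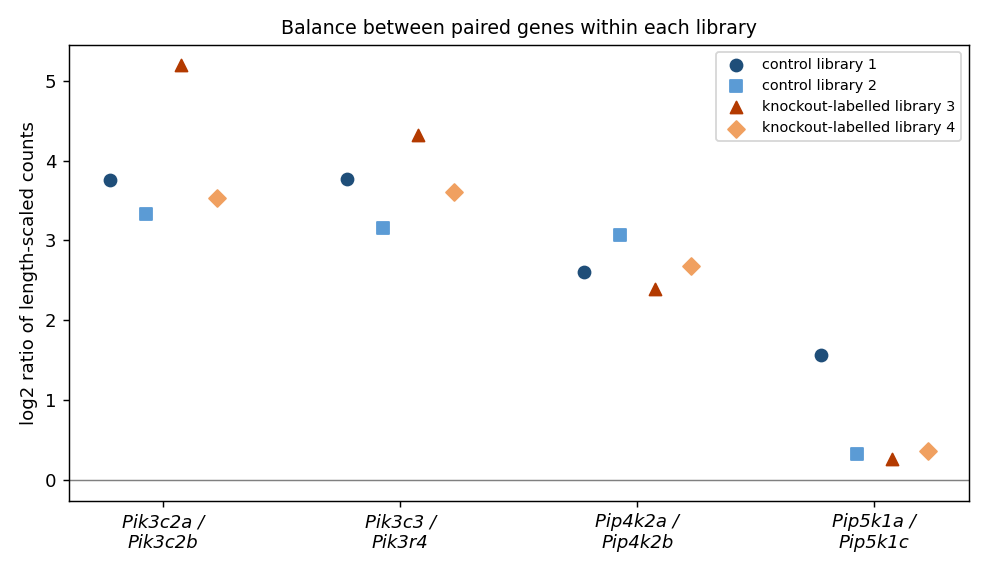
Log2 ratio of length-scaled counts for 4 gene pairs within each library; each point is a library. The groups overlap for every pair, and library 3 stands highest for Pik3c2a over Pik3c2b and for Pik3c3 over Pik3r4.

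Fold changes of all tested genes varied with summed exon length. By that length, tested genes were split into 4 classes of near equal number. The median log2 fold change was 0.02 and 0.07 in the shortest and the second class, -0.02 in the third (3627 to 6031 bases) and -0.12 in the longest (6032 bases or more), where 61.9% of genes were negative. The longest class held 5 members (Pik3c2a, Pik3c2b, Pik3r4, Pikfyve and Pi4ka), the third held Pik3c3, Pip4k2b, Pip5k1a and Pip5k1c, and the second held Pip4k2a. With offsets that remove this trend, an alternative added after the data were seen, the members' median was -0.22 against 0.01 for all tested genes, and 7 members were negative. Pip5k1a was then at -0.56, Pikfyve at -0.30, Pik3c2a at -0.23, Pi4ka at -0.27 and Pik3c3 at 0.25, none of them called.

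**Figure D5:**
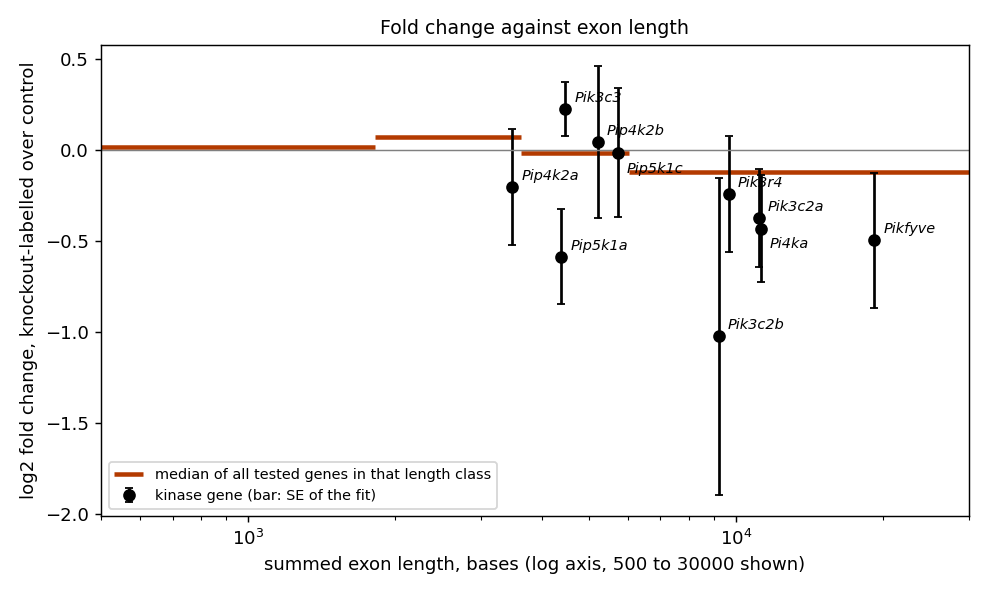
Log2 fold change (knockout-labelled libraries over control) of the 10 kinase genes against summed exon length (log axis), with the SE of the fit; horizontal bars give the median of all tested genes in each length class. The median is -0.12 in the longest class, and the 5 kinase genes there lie between -1.02 and -0.24.

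A list of other phosphoinositide kinase genes, which left out class I PI3K, held no called gene either. Of 7 such genes 5 were tested, and edgeR called 0, with 0 at an unadjusted p under 0.05 and a median log2 fold change of -0.27. Pip4k2c, the remaining PI5P 4-kinase gene, stood at 73.8 and 65.0 CPM in controls and at 81.6 and 84.1 CPM in the knockout-labelled libraries (log2 fold change 0.26, adjusted p = 0.716, edgeR). Per length it reached 11.9 to 15.4 RPKM, above Pip4k2a in every library. Pi4kb, the Golgi PI4-kinase gene, was at 5.97 and 3.58 CPM against 2.86 and 3.17 CPM (-0.66, SE 0.49, adjusted p = 0.772, edgeR). Pi4k2b was at 1.59 and 4.91 CPM against 1.51 and 2.51 CPM (-0.69, adjusted p = 0.869, edgeR). Pik3c2g, the third class II gene, had 3 counts in control library 1 and 0 in the other libraries, and was not tested.

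Genes listed as readers of the lipids made by these kinases were examined next, and lipid binding itself was not measured. All 25 genes listed under PI3P-binding proteins were tested and edgeR called 0. Of these, 2 were higher and 2 lower with an unadjusted p under 0.05, and the median was -0.15. Zfyve1, whose product marks PI3P-rich sites of autophagosome formation, was at 18.2 and 28.3 CPM in controls and at 8.05 and 11.8 CPM in the knockout-labelled libraries (log2 fold change -1.22, SE 0.36, adjusted p = 0.379, edgeR). Zfyve27, which encodes protrudin, was at 71.1 and 96.4 CPM against 53.9 and 60.8 CPM (-0.55, adjusted p = 0.487, edgeR). Snx1, a sorting nexin gene of endosomal recycling, was at 215 and 206 CPM against 262 and 267 CPM (0.33, adjusted p = 0.499, edgeR). Wdfy3, an autophagy scaffold gene, had 2 and 15 counts in controls and 53 and 113 counts in the knockout-labelled libraries (adjusted p = 0.487, edgeR). All 3 genes of PI(3,5)P2-gated channels were tested. edgeR called 0, with Tpcn2 under 0.05 unadjusted, at 15.004 and 18.1 CPM in controls and at 6.10 and 10.2 CPM in the knockout-labelled libraries (-1.02, SE 0.37, adjusted p = 0.455, edgeR).

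Genes that supply phosphatidylinositol or consume PI(4,5)P2 completed the pathway. Of 8 supply genes 7 were tested, 6 with negative log2 fold changes and a median of -0.13, and edgeR called 0, with 0 higher and 1 lower with an unadjusted p under 0.05. That gene was Pitpnc1, which encodes a phosphatidylinositol transfer protein and was at 1257 and 1483 CPM in controls and at 887 and 985 CPM in the knockout-labelled libraries (-0.55, SE 0.15, adjusted p = 0.346, edgeR). Of 9 phospholipase C genes 8 were tested, with a median of -0.24, and edgeR called 0, with 0 at an unadjusted p under 0.05. Plcg2, the isoform that couples immune receptors to calcium, was at 143 and 155 CPM against 127 and 147 CPM (-0.13, adjusted p = 0.903, edgeR). Plcb2 was at 15.7 CPM in both controls and at 15.1 and 6.40 CPM in the knockout-labelled libraries (-0.55, adjusted p = 0.801, edgeR), and Plcd3 stayed under 1 CPM in every library. Across all 67 pathway genes 62 were tested, of which 2 were higher and 4 lower with an unadjusted p under 0.05, beside 4.48% and 5.17% of all tested genes.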

How the data were processed

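RNA of CD49a-selected mouse ILC1s was sequenced from low-input SMARTer libraries, 2 per genotype. The deposited table holds raw read counts per gene; bcl2fastq, STAR, Subread, featureCounts and DESeq2 are named with mm10 per the submitters' processing notes, and their roles, the annotation and the strand setting are not given in the sources used here. Of 40757 lines, 276 repeated lines with identical counts were dropped. Genes passing filterByExpr (14863) were scaled with TMM and tested with edgeR 4.0.16 (robust quasi-likelihood, two-sided, genotype as the only term, 2 residual degrees of freedom) in R 4.3.3, with Benjamini-Hochberg adjustment over all of them and a threshold of 0.05. The procedure was tested on simulated data. Positions and lengths came from GENCODE M21. The members, lists and alternatives were chosen with earlier results of these data known. Named genes were the members, Inpp4b, Ncr1 and, from each pathway list, those with an unadjusted p under 0.05 or otherwise the 3 of smallest p. Gm44777, Tmem191c, Snap29, Pik3c2g and the cell type markers were named outside this rule after their values were seen. Replicates differed beyond sampling noise (chi-square per degree of freedom 90.9 in controls and 83.7 in the knockout-labelled libraries). The labels do not state whether each library is a different animal, and the p-values therefore reflect the variation among these 4 libraries, possibly technical. Alternatives were other scaling factors, filters and tests (DESeq2 1.42.0, limma-voom 3.58.1), removal of other-cell, ribosomal and mitochondrial genes, length-trend offsets, a replicate block and leaving out each library.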

Additional observations from a re-analysis of the deposited data

How the results depend on the processing

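No member was called under any of the 15 alternatives (lowest adjusted p = 0.36, Pip5k1a in DESeq2), and 5 members (Pik3c2a, Pik3c2b, Pik3c3, Pikfyve and Pip5k1a) kept their direction in all of them. The cause of the changes below was not tested. Pip5k1c was at 0.022 with upper-quartile factors, 0.084 with limma-voom and 0.057 with length-trend offsets, and Pip4k2b was at -0.017 with library totals alone. With each library left out in turn, the log2 fold change ranged from -0.40 to 0.51 for Pip5k1c, -0.27 to 0.32 for Pip4k2b, -0.76 to 0.0022 for Pi4ka, -0.63 to 0.030 for Pik3r4 and -0.69 to 0.13 for Pip4k2a, and the log2 difference of the Pik3c2a to Pik3c2b ratio from -0.015 to 1.65. The members' median ranged from -0.47 to -0.17. Members lower at an unadjusted p under 0.05 numbered 1 in DESeq2 and 0 to 1 with a library left out.

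Over all genes edgeR called 21 higher and 2 lower. The counts were 299 and 264 with no low-count filter, 40 and 9 with 50 counts in 2 libraries, 278 and 204 in DESeq2, 22 and 6 with library totals alone and 1 and 0 with length-trend offsets. Removal of other-cell, ribosomal and mitochondrial genes took out 7 markers of monocytes, macrophages and dendritic cells and Trac, all called in the main fit. Part of the fall was thus fixed in advance. Klra7, which was kept, had an adjusted p of 0.0489 in the main edgeR fit, close to the threshold. After this removal the counts were 0 and 0 in edgeR, where 1398 genes had an unadjusted p under 0.05. With a library left out they ranged from 0 to 18 higher and 0 to 2 lower. The lone library of a group is then assumed to vary like the other group. The titles share no replicate number between groups, but the column headers number each group 1 and 2. Same-numbered columns deviated together only weakly (r = 0.12 across 14863 genes, which are not independent replicates), and a number alone does not pair the libraries. A fit with these numbers as a replicate block, added after the data were seen, called 0 higher and 0 lower in edgeR, where 1709 genes had an unadjusted p under 0.05, with a median of -0.32 for the members. Pip5k1c was at 0.052 under this block, and the other 9 members kept their direction. Counting error is widest for Pik3c2b, whose counts were 17 to 78.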
